A study of Zea mays with 322 samples.

Results

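The 5L dosage series follows what happens to maize miRNAs when the distal part of the long arm of chromosome 5 is carried in fewer or more copies than the rest of the genome. Its members were chosen by their labels, as the plants of translocation line TB-5Lb and the control plants whose group name includes 5Lb, which gave 20 of the 322 libraries of the series. Small RNAs were sequenced from leaves of greenhouse plants grown for 45 days. In the diploid background the groups were monosomies with 1 copy of 5L (1D), diploid controls with 2 copies (2D) and trisomies with 3 copies (3D). In the haploid background they were disomies with an extra copy of 5L (h2D) and their haploid controls (h1D). Each group had 4 plants.

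TB-5Lb is a translocation that joins the end of arm 5L to the centromere of a B chromosome, a dispensable extra chromosome of maize. That centromere often fails to separate in pollen, so the progeny inherit differing numbers of the attached arm. Copy number was verified by the authors with fluorescence in situ hybridization, and the tables used here hold miRNA loci only, so neither copy number nor leaf identity could be set against marker genes. The aneuploid plants carry B chromosome material that their controls lack, and the 2D controls are shared with lines 1S and 3S and bear plant names of the 1S family (1Sb16, 1Sb24, 1Sb25 and 1Sb26). The h1D controls are shared with lines 1L and 8L. Leaves of the diploid and haploid plants came from separate earlier studies. Nothing in the labels says how the 4 plants of a group are related, so p-values measure only the spread among these plants.

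Plant miRNAs are cut from hairpin transcripts of MIRNA loci and guide the cleavage of target mRNAs, many of which encode transcription factors of leaf development. A change of segmental copy number can act on the loci inside the segment, in cis, and on loci elsewhere in the genome, in trans. A cis locus whose output follows its copies changes in proportion to dosage, one that is compensated does not change, and a trans locus that moves opposite to dosage shows an inverse effect. These are the patterns that the comparisons below were made to tell apart.

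Of the 64 MIRNA loci in the tables, 4 lie in the varied part of 5L and 60 do not. On the W22 genome the 4 are the unnamed locus Cluster_203651 (chr5:152603429-152603714), MIR156l (Cluster_209624, chr5:186624556-186624649), MIR394a (Cluster_211907, chr5:197478603-197478802) and MIR396f (Cluster_217249, chr5:218605858-218606093). Gene and exon annotation of these intervals was not used here. miR156 restrains SBP-box factors and keeps plants juvenile, miR396 restrains growth-regulating factors of dividing leaf cells, and miR394 restrains an F-box gene known from Arabidopsis leaf and stem cell work. The mature sequences of the 4 loci, and of the family members outside 5L with which they share or nearly share letters, are shown because near-identity decides how far reads can be given to one locus. They run 5′ to 3′, and capitals mark the seed, bases 2 to 8.

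Cluster_203651: uUUCAUAUuagcugucacucu
MIR156l: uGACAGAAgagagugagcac
MIR156b: cUGACAGAagagagugagcac
MIR156j: aUGACAGAagagagagagcac
MIR394a: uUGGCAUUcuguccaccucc
MIR396f: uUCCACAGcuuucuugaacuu
MIR396b: uUCCACAGcuuucuugaacug
MIR396c: uCCACAGGcuuucuugaacug

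MIR156l has the same mature sequence as MIR156h on chromosome 10, and MIR394a the same as MIR394b on chromosome 4. Reads of these pairs cannot be told apart by the mature sequence, so the split between the 2 copies is uncertain. MIR156b on chromosome 3 carries MIR156l's whole sequence behind 1 extra base. MIR396f differs from MIR396b at its last base (U21G, counted from 1 at the 5′ end of MIR396f), while MIR396c differs from it at 6 positions when aligned end to end. Cluster_203651 shares neither its seed nor its mature sequence with another of the 64 loci.

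The libraries held 1251320 to 2663590 mapped reads each, of which 2.70% to 5.79% lay on the 64 loci. MIR166f and MIR166g together took 90.7% to 97.0% of the counts on the loci. Apart from MIR396c and a few others, the remaining loci rest on few reads a library. Levels are given in RPM, reads per 1000000 mapped reads. Since RPM is a share of the small RNA of a whole leaf, fewer cells of a type and less miRNA per cell cannot be told apart.

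MIR156l and MIR396f, the cis loci with the most reads, were lowest in the monosomy among the diploid-background groups. MIR156l had 7.84, 5.63, 6.15 and 6.03 RPM in the 4 1D plants, 17.6, 12.3, 24.8 and 31.03 RPM in the 2D plants, and 28.5, 23.4, 8.46 and 15.2 RPM in the 3D plants. All 1D plants lay below all 2D and all 3D plants, whereas 2D and 3D overlapped. Group means were 6.41 ± 0.98 RPM in 1D, 21.4 ± 8.20 RPM in 2D and 18.9 ± 8.86 RPM in 3D (SD, n = 4 each).

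MIR396f had 92.6, 73.2, 88.4 and 86.3 RPM in 1D, 212, 196, 148 and 187 RPM in 2D, and 94.1, 112, 117 and 124 RPM in 3D. Both the monosomic and the trisomic plants lay below every diploid control, and the trisomic plants lay above the monosomic ones. Means were 85.1 ± 8.36 RPM in 1D, 186 ± 27.2 RPM in 2D and 112 ± 12.8 RPM in 3D (SD, n = 4 each).

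MIR394a was near the limit of detection, with 3, 1, 2 and 0 reads in the 1D plants, 1, 1, 7 and 4 reads in the 2D plants and 2, 3, 0 and 2 reads in the 3D plants. These groups overlapped. Cluster_203651 gave 1, 0, 1 and 0 reads in 1D, 1 read in each 2D plant, and 6, 2, 3 and 8 reads in 3D. Each trisomic plant thus had more reads of Cluster_203651 than any monosomic or diploid plant, at counts too low to order 1D and 2D. The miRNA of this locus has no name among the known families, and nothing is known here of its targets.

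In the haploid background, MIR156l had 15.5, 22.9, 19.4 and 73.98 RPM in the h2D plants, against 9.95, 13.1, 13.7 and 15.4 RPM in the h1D plants. All disomic plants lay above all haploid controls, the closest pair by a small margin, and plant 5Lbh9 stood far above the others. The means were 32.9 ± 27.5 RPM in h2D and 13.03 ± 2.28 RPM in h1D (SD, n = 4 each). MIR394a had 2, 4, 4 and 2 reads in the disomic plants and none in any of the 4 haploid controls. Over each group this is 3.34-fold higher in h2D than a floor of 3 counts in the h1D group (0.386 RPM). That value takes the h2D reads as exact, and the lower end of the counting interval of the ratio was 2.32. Such floors, and the counting intervals given below, cover counting error only.

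MIR396f had 87.0, 146, 115 and 87.0 RPM in h2D, against 81.3, 54.9, 109 and 78.1 RPM in h1D. The groups overlapped through 1 haploid plant, Hh26. Cluster_203651 gave 9, 9, 3 and 13 reads in h2D and 5, 1, 3 and 1 reads in h1D, and these groups overlapped too.

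**Figure D1:**
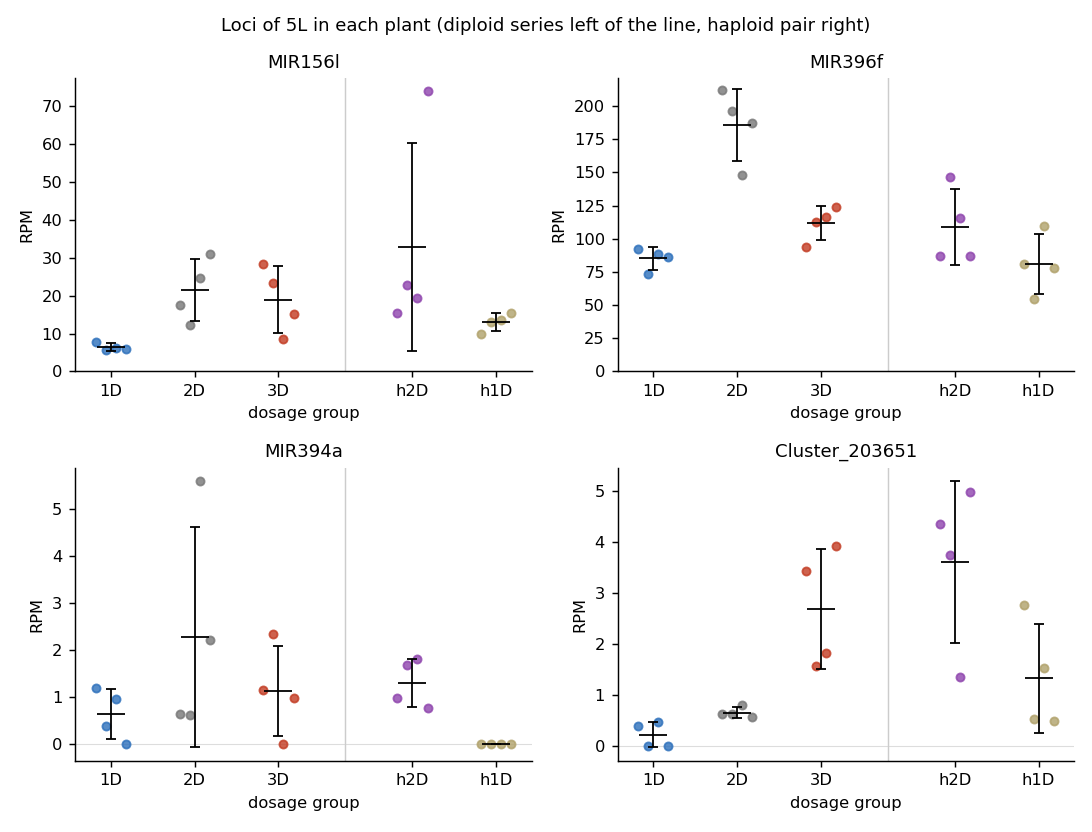
RPM of the 4 loci of 5L in each plant, with 1D, 2D and 3D left of the grey line and h2D and h1D right of it. Points are plants (4 a group), horizontal bars are means and whiskers are SDs. MIR156l and MIR396f are low in all 1D plants, MIR396f is also low in 3D, and plant 5Lbh9 is the highest MIR156l value at 73.98 RPM.

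Counts were compared with edgeR's quasi-likelihood test. A locus was called where its p, adjusted by Benjamini-Hochberg over every locus of the same comparison (FDR), was under 0.05. In the monosomy (1D/2D), 38 loci passed the limit of 0.5 RPM on average and 8 of them were called, 21.1%, with 1 higher (2.63%) and 7 lower (18.4%). Among the 3 cis loci tested, 2 were called lower. The RPM of 1D and 2D plants did not overlap at these 2 cis loci, nor at 26.3% of all loci tested. MIR156l fell, with a log2 fold change of −1.52 (SE 0.34, 95% interval −2.24 to −0.81, FDR 0.00420). MIR396f fell, with −0.90 (SE 0.14, −1.20 to −0.61, FDR 1.3e-04). The log2 fold change of MIR394a was −1.42 (−3.18 to 0.33, FDR 0.250). The cis median of −1.42 stood next to a median of −0.22 over all 38 loci. Proportional dosage would give −1, which lay within all 3 intervals, while no change lay within that of MIR394a alone.

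Both calls were kept in all 8 fits that left out 1 plant (−1.75 to −1.22 for MIR156l, −0.99 to −0.78 for MIR396f). They were not both kept against another control. The other control was the 4 diploid controls of line 6L, which the study lists under the same grouping label. Against them MIR156l gave 0.04 (FDR 0.951) and MIR396f gave 0.92 (FDR 2.5e-04), a rise. The 6L controls held 10.7 ± 4.74 RPM of MIR156l and 75.9 ± 6.67 RPM of MIR396f (SD, n = 4), below the 2D controls for both loci. With 1D, 2D and 3D in 1 fit none of the 38 loci was called (MIR156l −1.25, FDR 0.0636, and MIR396f −0.67, FDR 0.0681). Library depth and the share of MIR166f and MIR166g also separated the groups: the 1D libraries had 2114790 to 2663590 mapped reads and 93.1% to 94.0% of their locus counts on these loci, against 1251320 to 1804860 reads and 90.7% to 92.0% in 2D. Their part in the result was not tested.

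In the trisomy (3D/2D), 43 loci were tested and 5 called, 11.6%, with 1 higher (2.33%) and 4 lower (9.3%). DESeq2 called 6 higher and 4 lower. None of the 4 cis loci was called at these settings, though 2 had an unadjusted p under 0.05 and each of those 2 was called in 5 of 8 other settings. Cluster_203651 was called higher by DESeq2, on all mapped reads, with identical loci summed, in the joint fit of 1D, 2D and 3D and with the newer dispersion method of edgeR. MIR396f was called lower on all mapped reads, with a limit of 1 RPM, with no limit and in the joint fit, and higher against the 6L controls. Their 3D and 2D plants did not overlap at Cluster_203651 and MIR396f, nor at 18.6% of all loci tested. Cluster_203651 had the highest cis value, a log2 fold change of 2.17 (SE 0.72, 0.66 to 3.68, FDR 0.0541), and the read ratio of 3D over 2D was 4.43 (counting interval 1.47 to 17.9, from 19 and 4 reads). MIR396f gave −0.55 (SE 0.22, −1.01 to −0.10, FDR 0.0949), MIR156l −0.07 (−0.88 to 0.75, FDR 0.905) and MIR394a −0.83 (−2.59 to 0.94, FDR 0.540). The cis median of −0.31 was close to the median of −0.28 over all 43 loci. Proportional dosage would give 0.58. That value lay above the interval of MIR396f and below that of Cluster_203651, and within those of MIR156l and MIR394a, which also held no change. Against the 6L controls Cluster_203651 gave 0.02 (FDR 0.986), where those controls held 3.33 ± 1.30 RPM (SD, n = 4), and MIR394a gave 0.17 (FDR 0.948). MIR156l rose against them, with 1.09 (FDR 0.0137), and so did MIR396f, with 0.86 (FDR 4.8e-04). With the 2D controls, MIR396f was called without 5Lb48 (−0.78) and Cluster_203651 without 5Lb18 (2.34).

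Trisomies set directly against monosomies (3D/1D) need no control. Library depth separated these groups too, with 1280610 to 2036260 mapped reads in 3D against 2114790 to 2663590 in 1D. The part of depth was not tested. Of 40 loci tested, 11 were called, 27.5%, with 9 lower (22.5%) and 2 higher (5%), and both higher ones were cis. Taking all mapped reads for library size gave 6 higher and 9 lower. Cluster_203651 rose by a log2 fold change of 3.18 (SE 0.79, 1.49 to 4.88, FDR 0.0135), with a read ratio of 13.4 (counting interval 3.23 to 119, from 19 and 2 reads). MIR156l rose by 1.27 (SE 0.33, 0.56 to 1.97, FDR 0.0147). The 3D and 1D plants did not overlap at Cluster_203651, MIR156l and MIR396f, nor at 27.5% of all loci tested. Both calls were kept in all 6 other settings and in all 8 fits that left out 1 plant. MIR396f gave 0.19 (−0.24 to 0.62, FDR 0.509) and MIR394a 0.45 (−1.39 to 2.30, FDR 0.686). A proportional change is 1.58 on this scale, within the intervals of Cluster_203651, MIR156l and MIR394a and above that of MIR396f. With library size taken from all mapped reads MIR396f was called, at 0.39 (FDR 0.0386). The cis median was 0.86, beside 0.18 over all loci.

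A straight line in log2 copies over 1D, 2D and 3D called 1 of 40 loci, 2.5%. DESeq2 called 2 higher and 8 lower. The 1 locus was Cluster_203651, with a slope of 2.18 (SE 0.46, 1.19 to 3.18, FDR 0.0113), where 1 is proportional. MIR156l had a slope of 0.85 (0.24 to 1.45, FDR 0.0620), and it was called in all 6 other settings. The slopes of MIR396f, 0.22 (−0.25 to 0.69, FDR 0.545), and MIR394a, 0.39 (−0.84 to 1.62, FDR 0.643), were called in none of these settings. The slope called 9 loci without 1Sb25 or 5Lb48, 8 without 1Sb16 or 1Sb26, 7 without 5Lb23, 3 without 1Sb24 and 2 without 5Lb18. Of these fits, MIR156l was called in those without 5Lb23, 1Sb25, 1Sb26, 5Lb18 or 5Lb48.

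In the haploid background (h2D/h1D), 45 loci were tested and 6 called, 13.3%, all 6 higher and none lower by edgeR, with 11 loci at an unadjusted p under 0.05. DESeq2 called 7 higher and 2 lower. Of the 4 cis loci, 2 were called. MIR394a rose (FDR 0.0127), and its fold is the one given above against a floor. MIR156l rose by 1.58 (SE 0.43, 0.68 to 2.47, FDR 0.0167). MIR396f gave 0.65 (SE 0.23, 0.17 to 1.14, FDR 0.0720) and Cluster_203651 1.67 (SE 0.64, 0.34 to 3.00, FDR 0.0817), with a read ratio of 2.84 (counting interval 1.37 to 6.45). A proportional 2-fold change is 1, which lay within the intervals of these 3 loci. The cis median was 1.62, the same with MIR394a at 3.34-fold, beside 0.06 over all loci.

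These haploid calls rest on few plants. Without plant 5Lbh9 the MIR156l value was 0.77 and still called (FDR 0.0219), and without Hh23 or Hh26 it was no longer called (FDR up to 0.0862). The MIR156l call was also lost on all mapped reads (FDR 0.0696) and with the newer dispersion method (FDR 0.0567). MIR396f was called without 5Lbh9 (0.74), and MIR394a was lost without Hh26. Without 5Lbh8, or with a limit of 1 RPM, MIR394a fell below the RPM limit and was not tested. Without Hh26 none of the loci was called, and without Hh23 or Hh24 3 loci were. Against the haploid controls of lines 4S and 9S, with 17.4 ± 2.14 RPM of MIR156l and 133 ± 13.6 RPM of MIR396f (SD, n = 4), no cis locus was called. MIR156l then gave 1.13 (FDR 0.115), MIR394a 1.10 (FDR 0.267) and MIR396f −0.11.

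**Figure D2:**
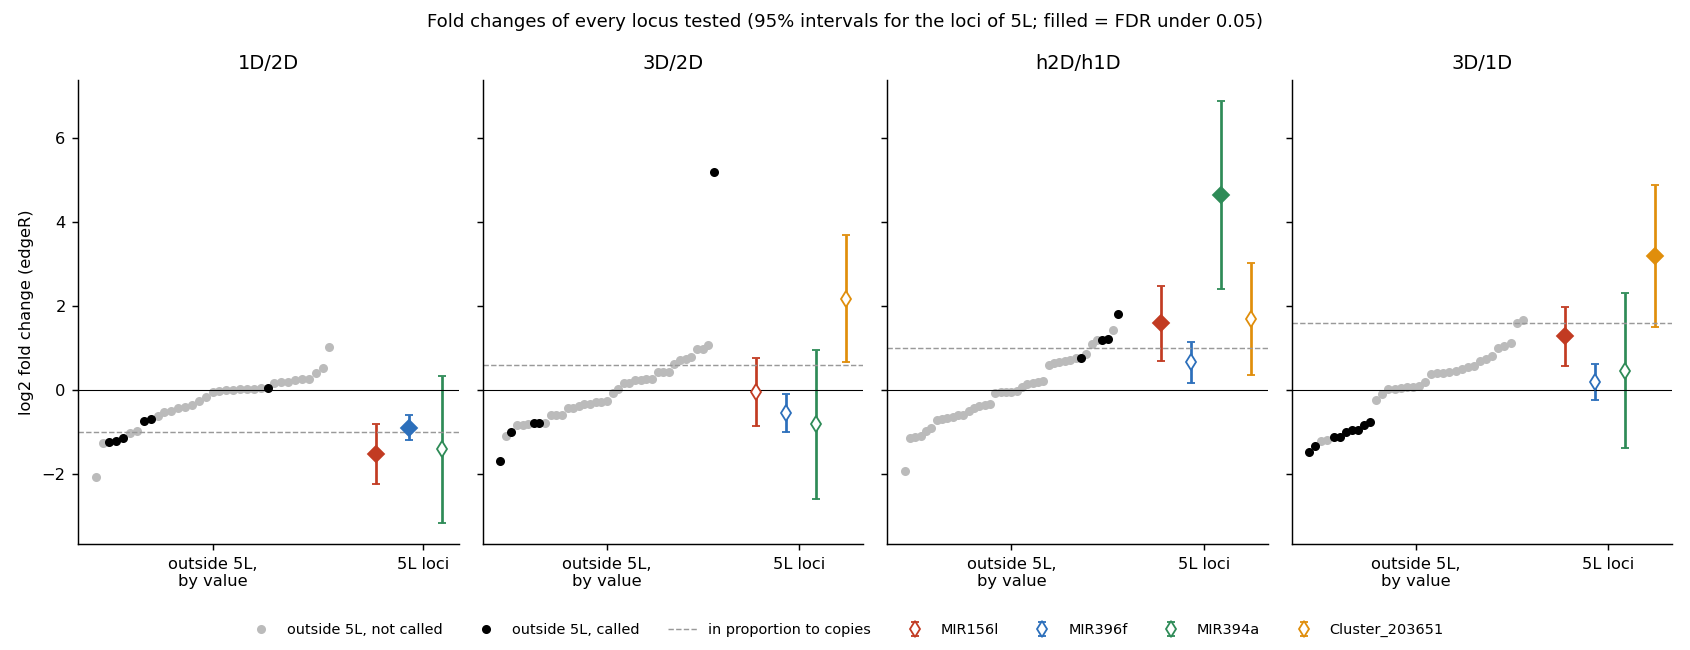
Log2 fold changes (edgeR) of every locus tested in 1D/2D, 3D/2D, h2D/h1D and 3D/1D. Round points are loci outside 5L in order of value, diamonds are the loci of 5L with 95% intervals, filled or black marks have an FDR under 0.05, and the dashed line is a change in proportion to copies. In 1D/2D MIR396f lies near that line, and MIR156l and MIR394a lie below it with intervals that hold it. The loci of 5L spread to both sides of it in 3D/2D and lie above 0 in h2D/h1D. There the MIR394a diamond is a fitted value against a group at 0 reads and no bound.

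The same loci in other translocation lines, where 5L is not varied, give the range these values can take with no change of their own dosage. MIR156l in 1D (−1.52) was the lowest of 14 monosomies, of which the other 13 ranged from −0.75 to 1.203. MIR396f in 1D (−0.90) was the second lowest of 14, above 9L (−1.06). In trisomies, each with its own control, Cluster_203651 (2.17, and 0.02 against the 6L controls) was the highest of 15 and MIR396f (−0.55) the second lowest. Next to 5L in both rankings was 3S, which has the same 2D controls, with 1.78 and −0.65. Cluster_203651 averaged 2.68 RPM in 5L, 2.26 RPM in 1S and 1.57 RPM in 3S trisomies, against 0.65 RPM in 2D. In disomies MIR156l (1.58) was the fourth highest of 17, and 5 of the 16 other lines had it called higher. MIR394a was the second highest of 16 after 1L, which has the same h1D controls at 0 reads. Several lines share a control group, so the lines are not independent.

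**Figure D3:**
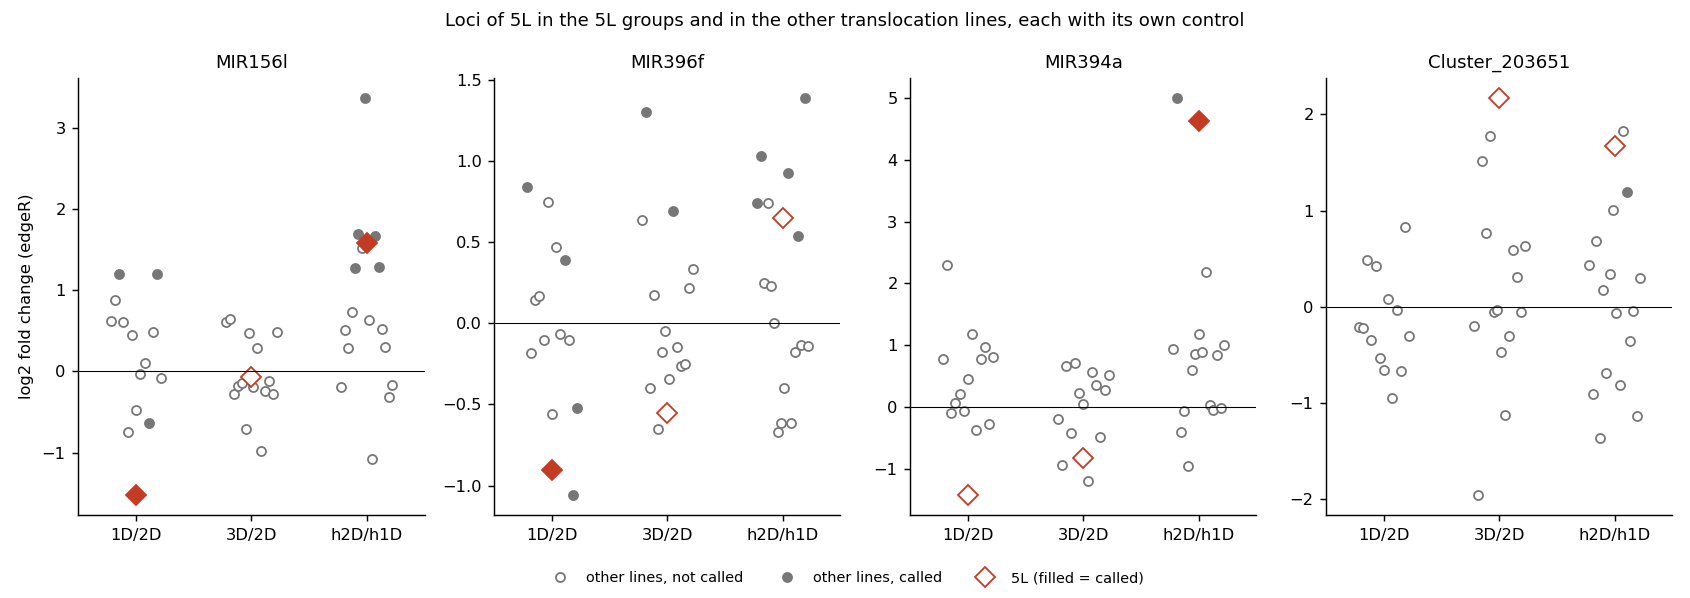
Log2 fold change of the 4 loci of 5L in the 5L groups (red diamonds) and in each other translocation line with its own control (grey circles), for 1D/2D, 3D/2D and h2D/h1D. Filled marks have an FDR under 0.05. The 5L monosomy is at the bottom for MIR156l and MIR394a, and the 5L disomy lies within the spread of other lines for MIR156l and MIR396f.

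Lines that share the 2D controls can be compared with 5L directly, with no use of the control. Against the 1S monosomies, the 5L monosomies had less MIR156l (6.41 against 53.5 RPM, log2 difference −2.86, FDR 2.6e-14) and less MIR396f (85.1 against 224 RPM, −1.17, FDR 5.7e-06), in a comparison where 48.6% of 37 loci were called and 21.6% called lower. Against the 3S monosomies, where 7.69% of 39 loci were called and 5.13% called lower, MIR396f was lower (85.1 against 152 RPM, −0.59, FDR 0.0368). That call was lost without 3Sb21, 3Sb24 or 3Sb25. MIR156l was 6.41 RPM in the 5L and 11.3 RPM in the 3S monosomies (−0.56, FDR 0.344). The shared 2D controls averaged 21.4 RPM of MIR156l and 186 RPM of MIR396f. For both loci that is below the 1S and above the 3S monosomies, so the differences from 1S also hold a higher level in 1S.

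No cis locus was called by edgeR between the trisomies of 5L and those of 1S or 3S, where 31.1% and 15% of the loci were. With all mapped reads in place of TMM, MIR396f was lower in 5L than in 1S (−0.62, FDR 0.00576), and without 5Lb18 MIR156l was higher in 5L than in 1S (0.99, FDR 0.0149). Among the disomies, Cluster_203651 was higher in 5L than in 1L (2.28, FDR 0.0143), and MIR156l higher in 5L than in 8L (1.34, FDR 0.0408), with 25% and 12.5% of loci called, and 11.4% and 8.33% called higher. The second of these was 0.30 (FDR 0.562) without plant 5Lbh9, and it was also lost without 8Lch12, 8Lch13 or 8Lch16. None of the 3 other settings (DESeq2, all mapped reads and the newer dispersion method) kept it, with FDRs of 0.0578 to 0.122.

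The relatives of the cis loci outside 5L moved in part with them. MIR156b had 4.31, 4.51, 3.31 and 2.78 RPM in 1D, 11.3, 7.99, 9.59 and 13.3 RPM in 2D, and 14.3, 7.81, 2.42 and 5.89 RPM in 3D. The monosomic plants were below all diploid controls, as for MIR156l. It fell in 1D/2D (−1.26, SE 0.34, FDR 0.0198) and rose in h2D/h1D (1.79, SE 0.53, FDR 0.0228).

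In the disomy MIR156b had 7.73, 6.67, 5.41 and 25.3 RPM, against 3.87, 3.66, 2.53 and 5.30 RPM in h1D. Plant 5Lbh9 was again the highest, and without it the log2 fold change was 0.99 and not called. MIR156h, identical to MIR156l, gave 9.58 RPM in that plant and 2.90 to 4.505 RPM in the other disomic plants, against 1.66 to 2.89 RPM in h1D (1.42, FDR 0.0817). Without 5Lb27 or 5Lb28 the monosomy call of MIR156b was lost.

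The 4 MIR156 loci did not all move one way. MIR156j had 13.7, 13.5, 15.1 and 16.2 RPM in 1D, 6.28, 11.1, 19.2 and 12.2 RPM in 2D, and 6.84, 7.81, 6.04 and 10.3 RPM in 3D. It was lower in 3D than in 1D (−1.12, SE 0.31, FDR 0.0154), a comparison in which MIR156l was higher. Summed, the 4 loci gave 26.1 ± 0.97 RPM in 1D, 47.7 ± 11.8 RPM in 2D and 36.8 ± 14.5 RPM in 3D, and 55.7 ± 36.1 RPM in h2D against 22.4 ± 4.42 RPM in h1D (SD, n = 4 each). MIR156l supplied 24.6% of the sum in 1D and 44.9% in 2D.

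MIR396c, on arm 2S, is the abundant member of its family. It had 648, 598, 595 and 667 RPM in 1D, 1147, 1181, 1212 and 1246 RPM in 2D, and 614, 578, 596 and 661 RPM in 3D. Monosomic and trisomic plants were alike far below the diploid controls, with no overlap. It fell in 1D/2D (−0.71, SE 0.07, FDR 1.1e-06) and in 3D/2D (−0.79, SE 0.16, FDR 0.00293), each kept in all 8 fits without 1 plant. In 3D/1D it gave −0.26 (−0.52 to 0.01, FDR 0.162).

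MIR396f was likewise highest in 2D, though its 3D plants lay above its 1D plants. Against the 6L controls, which held 769 ± 111 RPM of MIR396c (SD, n = 4), the MIR396c value was 0.45 (FDR 0.0136) in 1D, a rise, and −0.03 (FDR 0.948) in 3D. MIR396b stayed between 0.49 and 6.27 RPM in all 20 plants, and MIR394b between 0 and 3.15 RPM.

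**Figure D4:**
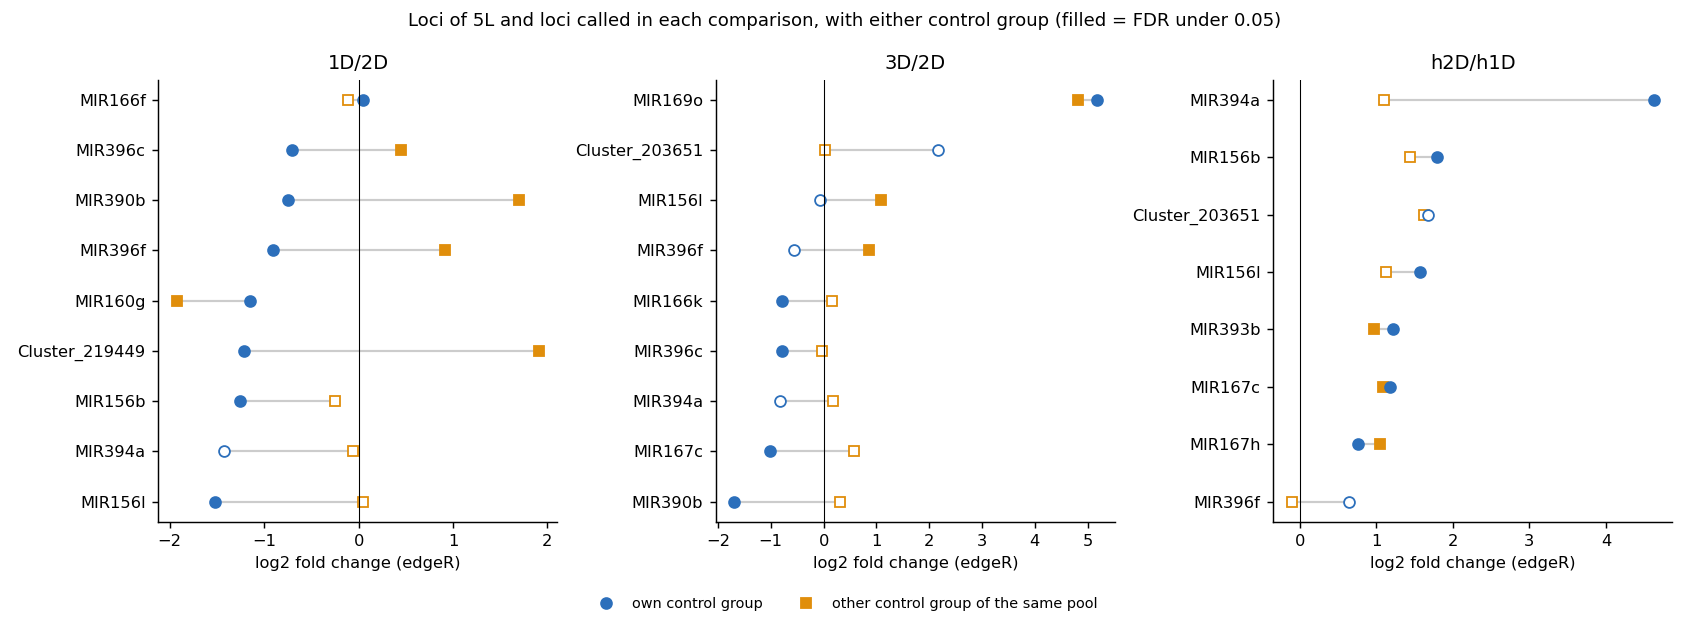
Log2 fold changes (edgeR) of the loci of 5L and of every called locus, against their own control (blue circles) and another control group (orange squares). The other controls, under the same grouping label of the study, are those of 6L for 1D/2D and 3D/2D, and of 4S and 9S for h2D/h1D. Filled marks have an FDR under 0.05. MIR156l, MIR396f, MIR396c, MIR390b, MIR166f and Cluster_219449 change sign in 1D/2D, whereas MIR167c, MIR167h and MIR393b keep their rise in h2D/h1D.

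The remaining called loci of the monosomy fell, with 1 exception. They were MIR390b (−0.75, SE 0.24, FDR 0.0341), which triggers tasiRNAs that restrain auxin response factors, MIR160g (−1.15, SE 0.37, FDR 0.0341), whose family targets auxin response factors directly, and the unnamed Cluster_219449 on chromosome 6 (−1.21, SE 0.36, FDR 0.0318). The exception, MIR166f (0.05, SE 0.02, FDR 0.0408), is the most abundant locus, and its direction depends on the scale: it averaged 19664 RPM in 1D and 22273 RPM in 2D, and on the scale of all mapped reads it was −0.18 (FDR 0.0299). It was lost without any 1 of the 4 monosomic plants. Its mature sequence is also that of MIR166g and MIR166i. MIR390b was lost without 5Lb23, 1Sb16 or 1Sb26, MIR160g in 6 of 8 such fits and Cluster_219449 in 4. DESeq2 and the joint fit of 1D, 2D and 3D called none of MIR390b, MIR160g, Cluster_219449 and MIR166f. Against the 6L controls MIR390b gave 1.70 (FDR 3.0e-09) and Cluster_219449 1.91 (FDR 3.0e-05), both rises, while MIR160g was still called lower. Without 5Lb27, 4 loci were called, and without 5Lb23, 5Lb28 or 1Sb16, 5 were.

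Among trans loci of the trisomy, MIR390b fell with the smallest FDR. It had 74.1, 60.1, 70.7 and 81.5 RPM in 3D, against 299, 279, 213 and 268 RPM in 2D. The trisomic plants were all below the lowest diploid control and close to each other. The log2 fold change was −1.70 (SE 0.23, FDR 2.9e-05). In the monosomic plants it was 89.4, 76.6, 188 and 183 RPM, a wide split within the group. MIR390b, MIR396c and MIR166k were kept in all 8 fits without 1 plant.

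MIR166k, of a family that restrains HD-ZIP factors of leaf polarity, had 182, 177, 176 and 167 RPM in 3D, against 332, 369, 316 and 339 RPM in 2D (−0.79, SE 0.17, FDR 0.00314). MIR167c, of a family that restrains auxin response factors, had 19.4, 17.2, 27.2 and 26.03 RPM in 3D, against 65.4, 43.6, 45.6 and 54.3 RPM in 2D (−1.02, SE 0.30, FDR 0.0339). Neither locus overlapped between the groups. The MIR167c call was lost without 5Lb17, 1Sb16, 1Sb25 or 1Sb26.

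MIR169o, of a family that restrains NF-YA factors, was called higher (FDR 0.0462). It had 4, 1, 0 and 12 reads in 3D and none in any 2D plant, 5.29-fold higher than a floor of 3 counts in the 2D group. The lower end of the counting interval of that ratio was 3.85. One trisomic plant also had none, and only 1 of the 7 fits without 1 plant kept the call. Against the 6L controls MIR390b gave 0.32 (FDR 0.231), MIR166k 0.16 (FDR 0.565) and MIR167c 0.58 (FDR 0.131). In the 3S trisomies, which share the 2D controls, MIR390b gave −1.28, MIR167c −0.98 and MIR396c −0.85. Between the 5L and 3S trisomies none of these loci, nor MIR166k, was called. Against the 1S trisomies, which share these controls too, MIR390b (−1.40, FDR 1.6e-06), MIR167c (−0.89, FDR 0.0189) and MIR166k (−0.60, FDR 0.0396) were lower in 5L. Without 1Sb25 or 1Sb26 3 loci were called in the trisomy, and without 5Lb48 8.

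The 9 loci called lower in 3D/1D were all trans. They were MIR166k (−0.96, SE 0.14, FDR 4.5e-04) and MIR166j (−1.02), MIR167c (−1.34, SE 0.29, FDR 0.00861), MIR390b (−1.12), MIR156j (−1.12), and MIR171e (−0.83), MIR171j (−1.49), MIR171m (−0.78) and MIR171n (−0.96) of a family that restrains GRAS factors. Of the 5 MIR171 loci tested, 4 were lower, beside 22.5% of all loci. The fifth, MIR171g, went the other way, with 1.11 (FDR 0.0704). It was called by DESeq2, on all mapped reads and with no RPM limit. MIR171e and MIR171n have the same mature sequence, which MIR171f and MIR171i also have. MIR166k and MIR166j are identical too, as are MIR171m and the unnamed Cluster_42505. How reads divide within each of these sets is uncertain. All 9 calls were kept under the 6 other settings, 1 of which sums identical loci and so leaves 7 separate lower calls.

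Over all 36 trans loci tested, called or not, 13 had a value below 0, and the trans median was 0.08. In single fits without 1 plant, MIR171e and MIR171n were called in 2 of 8. MIR390b was lost without 5Lb1, 5Lb27 or 5Lb28, MIR171m without 5Lb26 or 5Lb27, MIR156j without 5Lb17 or 5Lb27, and MIR171j without 5Lb23. Without 5Lb27 the 11 calls of 3D/1D became 6. MIR166k had 273, 274, 344 and 267 RPM in the 1D plants, above all 3D plants.

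**Figure D5:**
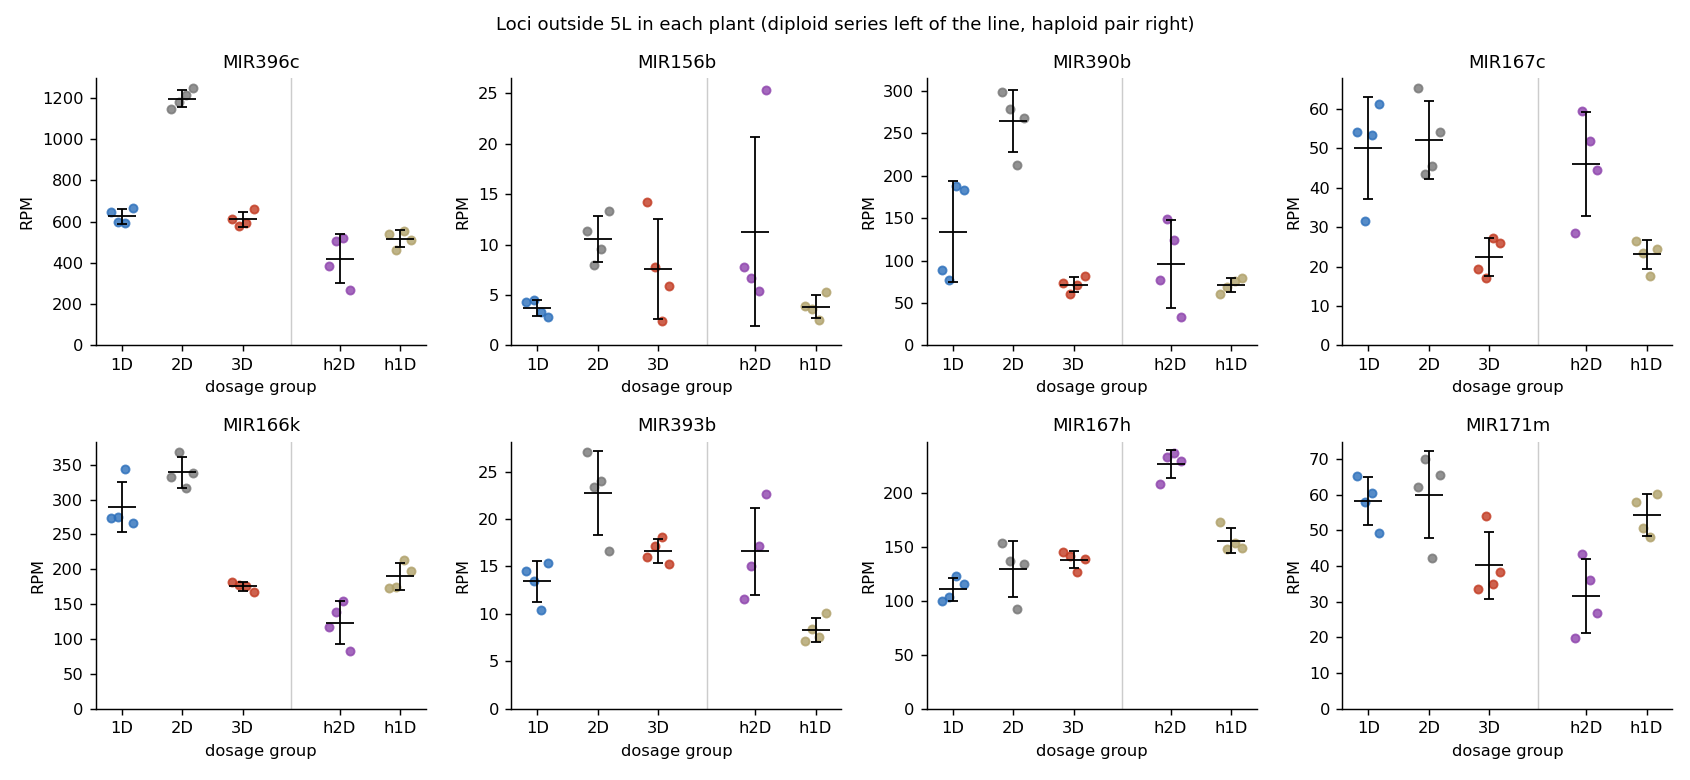
RPM in each plant of 8 loci outside 5L, with 1D, 2D and 3D left of the grey line and h2D and h1D right of it. Points are plants (4 a group), bars are means and whiskers SDs. MIR396c is between 578 and 667 RPM in 1D and 3D and at or above 1147 RPM in 2D, MIR166k and MIR167c are low in 3D, and MIR167c, MIR167h and MIR393b are higher in h2D than in h1D.

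In the haploid background MIR167c had 28.5, 59.6, 51.8 and 44.5 RPM in h2D, against 26.5, 23.5, 17.7 and 24.6 RPM in h1D (1.18, SE 0.29, FDR 0.0127). MIR167h, on arm 6L, had 208, 233, 237 and 229 RPM in h2D, against 172, 147, 153 and 149 RPM in h1D (0.76, SE 0.20, FDR 0.0151). MIR393b, whose miRNA restrains auxin receptors, had 11.6, 15.01, 17.1 and 22.6 RPM in h2D, against 7.19, 8.36, 7.59 and 10.1 RPM in h1D (1.22, SE 0.35, FDR 0.0215). For these 3 loci every disomic plant was above every haploid control, as for 28.9% of all loci tested without regard to direction. They also rose against the 4S and 9S controls. On the scale of all mapped reads none of the 3 was called. In 1 fit with the 1L and 8L disomies the calls of MIR393b and MIR167h were lost. Among 17 disomies, 5L was the fifth highest for MIR167c, the second highest for MIR393b and the highest for MIR167h. MIR167c was called higher in 5 of the 16 other lines. MIR393b was lost without Hh23, Hh24 or Hh26, MIR167h without 5Lbh17, Hh24 or Hh26, and MIR167c without Hh26.

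Against their own controls, MIR167c thus rose with an extra copy in the haploid background and fell with one in the diploid background. The fall depended on the control, since against the 6L controls the trisomy gave 0.58 (FDR 0.131). The haploid rise was not called on the scale of all mapped reads. The difference in response between backgrounds was tested for the 2-fold steps, h2D/h1D less 2D/1D, not for 3D/2D. Of 43 loci, 4.65% were called, namely MIR167c (difference 1.67, SE 0.38, FDR 0.00713) and MIR167h (1.10, SE 0.29, FDR 0.0170). With a limit of 1 RPM the differences were 0.72 (FDR 0.183) and 0.13 (FDR 0.780) and neither was called, nor was either on the scale of all mapped reads. This joint fit of 4 groups has its own TMM scale, so its differences are not those between the separate fits above. The median difference over all loci was 0.25 as reported, −0.66 with a limit of 1 RPM, −0.50 on all mapped reads and −0.002 by DESeq2. A difference of single loci is relative to that scale. No locus was called without 5Lbh8, 5Lbh9, Hh23, Hh26 or Hh27, 1 was without 5Lbh6, Hh24, 1Sb25 or 5Lb27, and 5 were without 1Sb16. For the cis loci the differences were 0.05 (−0.57 to 0.68) for MIR396f, 0.51 (−0.82 to 1.83) for MIR156l, 0.82 (−2.61 to 4.24) for Cluster_203651 and 3.38 (0.39 to 6.38, FDR 0.157) for MIR394a. None was called, and the intervals are wide.

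B chromosome material is carried by the 5L aneuploid plants and not by their controls. The effect of a B chromosome was measured in other plants with 1 B chromosome (1B) and without one (0B). By edgeR none of 43 loci was called, with 4 at an unadjusted p under 0.05. MIR167c averaged 60.7 RPM in 1B and 18.99 RPM in 0B (1.196, SE 0.40, FDR 0.252), the groups did not overlap (nor at 4.65% of all loci), and it was called on the scale of all mapped reads and in the fits without plant EB23 or D3. MIR167h averaged 78.6 RPM in 1B and 90.9 RPM in 0B (−0.65, FDR 0.343). The part of B chromosome material in the MIR167c and MIR167h results was not tested. Among cis loci the 1B/0B values were −0.42 (MIR156l), −0.38 (MIR396f), 0.64 (Cluster_203651) and −2.01 (MIR394a), none called.

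The other arm of chromosome 5, which is not varied in TB-5Lb, holds 5 loci, of which 4 were tested in each comparison. In 1D/2D, where 21.1% of all loci were called, 1 was higher (MIR166f) and 1 lower (MIR390b). In 3D/2D, where 9.3% of all loci were called lower, 2 were lower (MIR390b and MIR167c). In h2D/h1D, where 13.3% were called higher, 1 was higher (MIR167c). In 3D/1D, where 22.5% were called lower, 3 were lower (MIR390b, MIR167c and MIR171m). The fifth, MIR171f, had at most 1 read in any plant.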

How the data were processed

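Small RNA was extracted from leaves with the mirVana kit, and TruSeq libraries were sequenced on a NextSeq500. According to the methods, the authors trimmed reads with cutadapt 1.16, removed low-quality reads and structural RNAs (Bowtie2), aligned reads of 18 to 30 nt to the W22 genome with the organelle genomes by ShortStack, and deposited raw counts per MIRNA locus. The deposited RPM are those counts per 1000000 mapped reads of the library. Names, positions and mature sequences of loci are those of the study's supplementary data. All table columns were matched to samples by title.

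Counts were tested by the quasi-likelihood test of edgeR 4.0.16 under R 4.3.3, with TMM factors and 1 fit per comparison, for loci averaging 0.5 RPM or more across both groups, and p-values were adjusted over all of them. The study names edgeR but not its test. SEs were taken from the log2 fold change and F, and 95% intervals from the moderated degrees of freedom. The log2 fold change is relative to the TMM scale. On it the median of all loci was −0.22 in 1D/2D, −0.28 in 3D/2D, 0.06 in h2D/h1D and 0.18 in 3D/1D, whereas on the scale of all mapped reads it was −0.43, −0.45, −0.19 and 0.42, and by DESeq2 0.01, −0.06, −0.03 and 0.38. Chi-square tests between plants of 1 group found none of the 20 libraries within sampling noise of another (p at most 0.0374). In the B chromosome series 1 such pair was counted as 1 sample. The 3 libraries of other lines that the study excluded were left out. The scripts were tested on simulated counts.

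Alternatives were DESeq2 1.42.0 size factors, mapped reads as library size, other filters, summed identical loci, joint fits, other control groups, leaving out each plant and, added after seeing the data, edgeR's newer dispersion method. Named loci were the cis loci, their families, the other arm of chromosome 5, every called locus and MIR167c and MIR167h. Members, lists and tests were chosen with earlier results of these data known. Plots used Python 3.11.15 and matplotlib 3.10.9.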

Additional observations from a re-analysis of the deposited data

Results flagged for a closer look

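In a group of 4 plants, 1 plant stood apart from the other 3 in 8 of 118 groups examined, where chance flags about 1 in 20 groups. In the disomy, plant 5Lbh9 had 73.98 RPM of MIR156l against 15.5 to 22.9 RPM in the others, and 25.3 RPM of MIR156b against 5.41 to 7.73 RPM. MIR396b was 2.32 RPM in monosomic plant 5Lb28 and 6.27 RPM in haploid plant Hh27. MIR160g was 3.54 RPM in Hh26 against 9.16 to 9.41 RPM in the other haploid controls. MIR166k was 344 RPM in monosomic plant 5Lb27 and MIR171n 23.1 RPM in 5Lb23. MIR171f was 0 RPM in diploid control 1Sb25, where the other 3 plants had 1 read each.

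Differences in response between groups were called for 7 tests. The 2-fold steps in the haploid and diploid backgrounds differed by 1.67 for MIR167c and 1.10 for MIR167h, beside a median of 0.25 over all loci. Between monosomies that share a control, MIR156l differed by −2.86 and MIR396f by −1.17 in 5L against 1S, and MIR396f by −0.59 in 5L against 3S. Between disomies, Cluster_203651 differed by 2.28 in 5L against 1L and MIR156l by 1.34 in 5L against 8L, all on the log2 scale.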

How the results depend on the processing

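Of 1095 values of single loci under other settings, 128 lost the call and 29 gained one with the sign kept, and 44 changed sign, 31 of them called neither as reported nor in the other setting. Of 177 counts of calls, 114 stayed within 1.5 times the reported count and 63 did not. For 1D/2D (8 calls) DESeq2 gave 5, mapped reads as library size 13 (0 higher and 13 lower), 1 joint fit of the 3 groups 0 and the 6L control 27 (19 higher and 8 lower). For 3D/2D (5 calls) the same settings gave 10, 8, 10 and 11. For h2D/h1D (6) mapped reads gave 1. For the slope (1) DESeq2 gave 10, mapped reads 2, a limit of 1 RPM 9, no limit 10, summed identical loci 8 and the newer dispersion method, chosen after seeing the data, 9. For the difference between backgrounds (2) a limit of 1 RPM gave 5. For 5L against 3S monosomies DESeq2 gave 1, for 5L against 8L disomies DESeq2 gave 2 and mapped reads 3, and for 1B/0B mapped reads gave 1. The cause was not tested. The values that changed sign against the 6L control, called in at least 1 of the 2 fits, were in 1D/2D MIR156l 0.042, MIR396f 0.92, MIR390b 1.70, MIR166f −0.11, Cluster_219449 1.91 and MIR396c 0.45, and in 3D/2D MIR156l 1.09, MIR396f 0.86, MIR166k 0.16, MIR390b 0.32 and MIR167c 0.58. On mapped reads MIR166f became −0.18 in 1D/2D and MIR396f −0.62 in 5L against 1S trisomies.

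Leaving out 1 plant at a time gave 4 to 9 calls in 1D/2D, 3 to 8 in 3D/2D, 0 to 7 in h2D/h1D, 6 to 15 in 3D/1D, 1 to 9 for the slope, 0 to 5 for the difference between backgrounds, and 0 to 2 in 1B/0B. For 5L against 1S and 3S monosomies it gave 16 to 20 and 0 to 3, for trisomies 9 to 15 and 5 to 6, and for 5L against 1L and 8L disomies 3 to 10 and 1 to 5. No paired analysis was possible because the groups share no replicate numbers. MIR394a and Cluster_203651 rest on at most 13 reads a library, so smaller changes of these loci were not detectable at this depth.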
